A study of Homo sapiens with 4 samples.

Results

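The bromodomain protein BRD8 bound 1533 sites in both HCT116 and SW480 colorectal cancer cells that lay away from the ends of every annotated gene. They were the HCT116 peak regions on chromosomes 1 to 22 and X that overlapped a SW480 region by at least 1 bp and whose summit, the base of highest signal, was more than 1 kb from either end of every gene in the RefSeq table for GRCh38. A stretch of chromosome 7 from 76 to 96 Mb and a 5 Mb stretch of chromosome 8 that holds MYC were left out. These sites made up 6.96% of the 22039 HCT116 regions outside those stretches, of a whole list of 22303. They were 28.9% of the 5309 HCT116 regions that overlapped SW480, and 13.2% of the 11579 HCT116 regions away from gene ends. Under them lay 1705 SW480 regions, of which 1529, 89.7%, had their own summit away from gene ends, and these were 23.3% of the 6569 such SW480 regions. The sites were thus chosen by called peaks in both lines and by position, so their number and their fold and q values are descriptions.

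The series asked where BRD8 binds in colorectal cancer cells, with HCT116 and SW480 as established lines. HCT116 was derived from a tumour with defective mismatch repair and SW480 from one with a truncated APC gene. The labels give no treatment, each line gave 1 BRD8 ChIP library and 1 input library, and BRD8 was precipitated with the same polyclonal antibody from formaldehyde-fixed chromatin cut with micrococcal nuclease. The number of reads per library is not given in the sources used here. With 1 ChIP library per line there is no replicate check, so differences between the lines describe these libraries, and the intervals given on shares cover counting error only.

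BRD8 is a subunit of the TIP60/NuA4 complex, which acetylates histones H4 and H2A and exchanges the histone variant H2A.Z, mainly around active transcription start sites. Sites of chromatin factors away from gene ends can be enhancers, or alternative promoters that start shorter transcripts within a gene. A gene table that lists only the outer ends of each gene does not show such internal starts. RefSeq transcript starts, available for all the chromosomes used except chromosome 8, were therefore used to place the sites. Listed starts covered 82.1% of the protein-coding genes on these chromosomes, so the internal-start shares below count listed starts alone and sites at other starts fall in the remaining classes.

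Of the 1486 sites on chromosomes with listed starts, 337 had their summit within 1 kb of a RefSeq transcript start that was not a gene end. This was 22.7% (95% Wilson interval 20.6 to 24.9), and all 337 sites lay inside a gene. At 276 of them that start was itself more than 1 kb from every gene end, and at the other 61 sites, 18.1% (14.4 to 22.6), it was at most 1 kb from one, with a median distance of 3743 bp over the 337. A further 799 sites, 53.8%, were elsewhere inside a gene, and 350 sites, 23.6%, were outside genes. The other 47 sites were not placed. Among HCT116-alone regions away from gene ends the internal-start share was 7.10% (6.60 to 7.63, 678 of 9554), and among SW480-alone regions it was 2.47% (2.06 to 2.96, 113 of 4580). Counting only starts over 1 kb from every gene end, the shares were 18.6% of the sites (16.7 to 20.6), 5.75% of HCT116-alone and 2.23% of SW480-alone regions. The label of the sites thus held for HCT116 summits and gene ends, while the region itself reached a gene end at 74 sites. At least 22.7% of the placed sites had the HCT116 summit within 1 kb of another transcript start.

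Sequences of 5 internal starts are given because the summit lay inside the listed window and each showed a different set of motifs. Each window runs from 250 bases before to 50 bases after the start, from RefSeq on GRCh38.p14, and is written 5′ to 3′ along the transcript. Capitals mark matches on either strand to the motifs named for each window. AEN, a p53-induced nuclease, lies on the plus strand (chr15:88621090-88621389), with ETS, E-box, SP/KLF and CCAAT matches. HNRNPUL1, an RNA-binding protein of the nucleus, lies on the plus strand (chr19:41264122-41264421), with SP/KLF, CTCF core and CCAAT matches. PUM2, a translational repressor, lies on the minus strand (chr2:20350935-20351234), with NRF1, E-box and SP/KLF matches. ASNS, asparagine synthetase, lies on the minus strand (chr7:97872116-97872415), with ETS and SP/KLF matches. RPL6, a protein of the large ribosomal subunit, lies on the minus strand (chr12:112409236-112409535), with a CTCF core match.
AEN: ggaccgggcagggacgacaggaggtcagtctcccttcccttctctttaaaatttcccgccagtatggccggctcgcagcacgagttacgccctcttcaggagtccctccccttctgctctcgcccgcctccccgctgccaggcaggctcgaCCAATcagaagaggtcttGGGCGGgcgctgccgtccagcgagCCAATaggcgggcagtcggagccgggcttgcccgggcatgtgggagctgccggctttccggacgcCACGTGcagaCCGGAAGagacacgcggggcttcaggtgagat
HNRNPUL1: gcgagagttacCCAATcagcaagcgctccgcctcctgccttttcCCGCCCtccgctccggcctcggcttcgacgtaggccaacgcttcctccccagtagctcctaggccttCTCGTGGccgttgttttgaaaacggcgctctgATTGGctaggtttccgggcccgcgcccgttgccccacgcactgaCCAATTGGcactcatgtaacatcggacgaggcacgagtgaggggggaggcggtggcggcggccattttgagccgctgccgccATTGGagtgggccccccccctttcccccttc
PUM2: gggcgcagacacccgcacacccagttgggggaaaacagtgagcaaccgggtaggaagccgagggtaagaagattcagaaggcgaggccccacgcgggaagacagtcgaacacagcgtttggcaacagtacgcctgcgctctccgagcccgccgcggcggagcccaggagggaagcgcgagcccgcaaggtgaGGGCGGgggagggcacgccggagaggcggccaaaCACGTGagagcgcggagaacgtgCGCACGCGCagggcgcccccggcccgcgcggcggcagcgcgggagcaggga
ASNS: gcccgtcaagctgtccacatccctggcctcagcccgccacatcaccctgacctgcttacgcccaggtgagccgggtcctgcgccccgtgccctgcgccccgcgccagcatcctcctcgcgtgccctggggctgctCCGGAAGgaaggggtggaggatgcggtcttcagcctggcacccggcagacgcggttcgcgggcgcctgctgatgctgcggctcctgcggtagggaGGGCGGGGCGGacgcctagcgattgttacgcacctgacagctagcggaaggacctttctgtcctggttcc
RPL6: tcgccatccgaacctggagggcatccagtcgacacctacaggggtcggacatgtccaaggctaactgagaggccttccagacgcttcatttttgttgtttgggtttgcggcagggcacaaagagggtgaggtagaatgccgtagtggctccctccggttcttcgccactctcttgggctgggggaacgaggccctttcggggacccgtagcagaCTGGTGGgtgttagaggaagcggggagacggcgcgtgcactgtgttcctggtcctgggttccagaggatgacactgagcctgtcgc

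The highest HCT116 fold among the sites was at MIR17HG, which hosts the miR-17-92 cluster. Its HCT116 region covered all 6 microRNA hairpins of that cluster, and also the nearest listed transcript start, 1520 bp from the HCT116 summit. Of the 2 SW480 regions there, the one of highest fold (91348395 to 91350248) ended before the first hairpin. The position of the other is not given here, so no difference between the lines over the hairpins is read from this. Of each hairpin 1 of the 2 mature arms is shown, because these microRNAs are products of the DNA under the HCT116 region. They are from RefSeq on GRCh38.p14, with the seed (bases 2 to 8), which pairs with target messages, in capitals. The 6 shown fall into 4 seed groups, of which miR-17-5p and miR-20a-5p share one, and miR-19a-3p and miR-19b-3p another.
miR-17-5p: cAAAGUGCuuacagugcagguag
miR-20a-5p: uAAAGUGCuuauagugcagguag
miR-18a-5p: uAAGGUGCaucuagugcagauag
miR-19a-3p: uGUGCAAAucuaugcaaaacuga
miR-19b-3p: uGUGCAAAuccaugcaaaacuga
miR-92a-3p: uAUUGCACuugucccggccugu

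The MIR17HG region (chr13:91346578-91352320) had a fold enrichment of 41.3 in HCT116 and 10.5 in SW480. Fold enrichment is the authors' value, in which 1 was added to the ChIP pileup at the summit and to the local background before the division. Pileup and background, counted in overlapping fragments, were solved from the deposited fold and p. At MIR17HG the HCT116 pileup was 195 over a background of 3.75, and the SW480 pileup was 91 over a background of 7.78. The summits of the lines were 20 bp apart, 1398 bp from the nearest end of MIR17, whose hairpin is the first of the cluster. Of 1558 microRNA hairpins on these chromosomes, 9 overlapped the HCT116 regions of 4 of the sites. Besides the cluster these were MIR4492 under a BCL9L site, MIR3912 under an NPM1 site with folds of 10.2 in HCT116 and 5.56 in SW480, and MIR21, covered in part, under a VMP1 site with 3.17 in HCT116 and 2.84 in SW480.

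**Figure D1:**
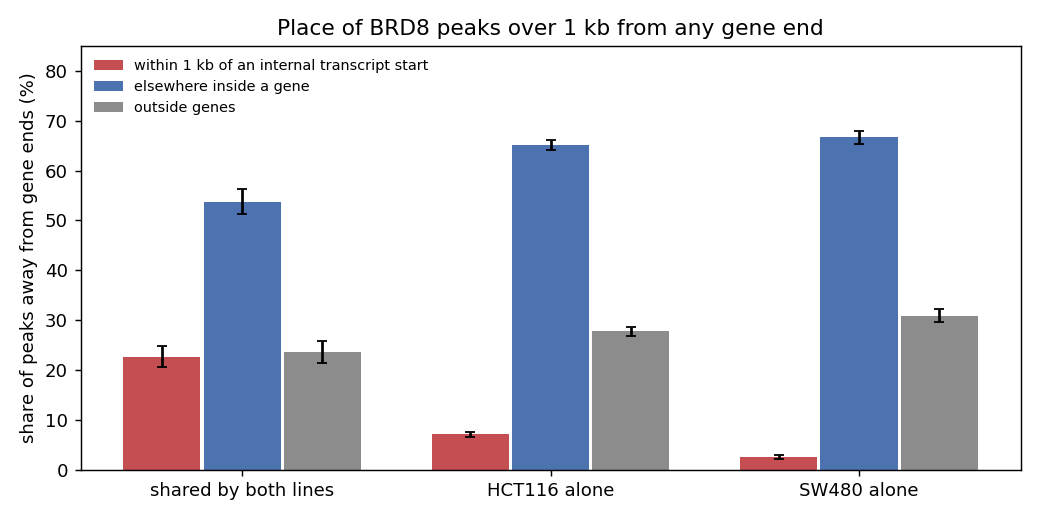
Place of BRD8 peaks whose summit is over 1 kb from any gene end, as a share in percent, for peaks shared by both lines, HCT116-alone peaks and SW480-alone peaks on chromosomes with listed transcript starts. Bars are shares and error bars 95% Wilson intervals. The internal-start bar is 22.7% for shared peaks, against 7.10% for HCT116-alone and 2.47% for SW480-alone peaks.

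Internal-start regions overlapped the other line more often than regions elsewhere inside genes or outside them. In HCT116, 33.2% of the 1015 internal-start regions overlapped SW480 (30.4 to 36.2), beside 11.4% of regions elsewhere inside genes, 11.7% outside genes and 36.1% at gene ends. In SW480, 78.6% of the 528 internal-start regions overlapped HCT116 (74.9 to 81.9), beside 25.1% elsewhere inside genes, 22.4% outside genes and 84.8% at gene ends. The gene-end share was inside the interval of the internal-start share in HCT116 and above it in SW480.

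The internal-start share went up with peak strength. When the sites were divided into 4 equal groups by HCT116 −log10 q, the significance given by the peak caller, internal starts made up 10.2% of the lowest group (7.53 to 13.7). The share was 14.8% and 24.5% in the middle groups and 41.4% in the highest (36.5 to 46.5). HCT116-alone regions in the same ranges of −log10 q had lower shares, of 4.75%, 8.66%, 12.2% and 20%. Groups by SW480 −log10 q, from the lowest up, had 16.8%, 21.6%, 23.7% and 28.5%. In each range of strength the share was higher among the sites than among HCT116-alone regions, and the intervals, for counting error only, did not overlap. The ranges were set by the sites' own −log10 q, and the highest had no upper limit. The sites also had to overlap a SW480 region and were wider, with a median of 963 bp against 431 bp. Strength within a range and width were thus not matched, and whether strength accounts for the difference was not tested.

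Internal-start summits lay downstream of the start as often as summits at gene ends, but were spread more widely around it. Of the 337 summits in HCT116, 220 (65.3%, 60.1 to 70.2) lay downstream of the start, with a median of 138 bp. For the 3146 shared peaks at gene ends that had a listed start within 1 kb, the share was 65.0% and the median 120 bp. Directly at the start there were few summits. Within 50 bp of it lay 17 internal-start summits in HCT116, 5.04%, against 4.45% for shared gene-end peaks, and within 250 bp 41.2% against 60.1%. The rule keeps summits over 1 kb from gene ends in the first set and within 1 kb in the second. At the 61 sites whose start was at most 1 kb from a gene end, the rule thus limited how near the summit could lie. The wider spread is therefore in part built in by the rule. In SW480 the summits of 6 of these regions, 1.78%, lay within 50 bp of the start, the same share as at gene ends.

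**Figure D2:**
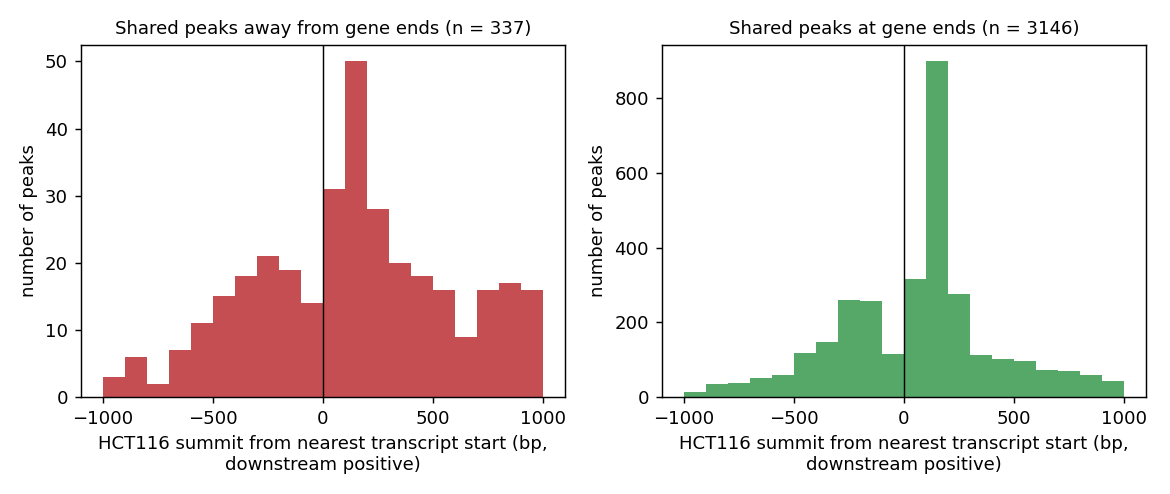
Number of peaks by the distance in bp from the nearest RefSeq transcript start to the HCT116 summit, downstream positive, in steps of 100 bp, for the 337 internal-start sites (left) and 3146 shared gene-end peaks (right). Both show the highest bar downstream of the start, a lower group upstream and a dip between them. The median is 138 bp at the internal-start sites and 120 bp at the gene-end peaks.

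The starts at these sites were rich in G and C. Of the 337 HCT116 summits 55 lay inside a window, so the windows describe the starts and mostly not the sequence under the summits. The 332 distinct windows had a median GC content of 66.0% (quartiles 59.0 to 73.7) and a median of 27 CpG dinucleotides. The 3086 windows of shared gene-end peaks had 65.0% and 27, while the 4083 internal starts with no BRD8 peak within 1 kb in either line had 50.7% and 5. Over all 34961 windows the medians were 58.7% and 14. In base composition the internal starts with a shared peak were close to gene-end promoters with a shared peak and differed from internal starts without one.

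The 13 motifs were searched on both strands of each window, and a match is a description of the start, not a binding site. Sequence under the summits outside the windows was not searched. The SP/KLF letters GGGCGG were in 73.5% of the 332 windows (68.5 to 78.0), beside 71.1% at shared gene ends, 25.6% at internal starts with no peak and 45.0% of all windows. The ETS letters CCGGAAG were in 13.0% (9.76 to 17.0), beside 25.1% at shared gene ends, 3.38% at internal starts with no peak and 10.3% of all windows. The NRF1 letters GCGCNTGCG were in 9.94%, beside 18.5% at shared gene ends, 1.98% at internal starts with no peak and 7.497% of all windows. ETS and NRF1 matches were thus less frequent at the internal starts than at gene ends, and their intervals did not overlap (an upper limit of 17.0 for ETS and 13.6 for NRF1 at the internal starts, against 23.6 to 26.7 for ETS and 17.1 to 19.9 for NRF1 at gene ends). The E-box CACGTG was in 12.05%, beside 14.5% at shared gene ends, 4.58% at internal starts with no peak and 7.27% of all windows. The YY1 letters AAGATGGCG were in 2.41%, beside 5.67% at shared gene ends, 0.147% at internal starts with no peak and 1.76% of all windows. The AP-1 letters TGANTCA were in 6.33%, beside 4.50% at shared gene ends, 10.1% at internal starts with no peak and 7.68% of all windows. CCAAT was in 33.1%, beside 36.6% at shared gene ends, 32.1% at internal starts with no peak and 34.6% of all windows.

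Of the other 6 motifs, the letters AGATAAG of the GATA factors were in 0.602% of the windows (0.165 to 2.17), beside 0.972% at shared gene ends, 4.26% at internal starts with no peak (3.68 to 4.93) and 2.67% of all windows. CRE (TGACGTCA) was in 2.41% (1.23 to 4.68), beside 3.76% at shared gene ends, 0.735% at internal starts with no peak (0.515 to 1.05) and 1.85% of all windows. GATA matches were thus less frequent, and CRE matches more frequent, than at internal starts with no peak, with intervals that did not overlap. TCF/LEF (CTTTGAT) was in 1.20%, beside 1.17% at shared gene ends, 3.28% at internal starts with no peak and 2.63% of all windows. ZNF143 (ACTACAA) was in 2.41%, beside 3.66% at shared gene ends, 2.25% at internal starts with no peak and 2.77% of all windows. The CTCF core (CCACNAG) was in 15.1%, beside 14.3% at shared gene ends, 15.8% at internal starts with no peak and 14.2% of all windows, and the HNF4 letters (CAAAGTCCA) were in a single window of the 332. The window sets differ in base composition as given above, and its part in these shares was not tested. No motif letter string is contained in another, though matches can overlap, as in the run of 2 SP/KLF matches of ASNS.

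Of the internal-start sites, those of highest HCT116 fold and those shown above had the following values. AEN had a fold of 15.0 in HCT116 (pileup 92, background 5.21) and 6.54 in SW480 (pileup 49, background 6.64), with the HCT116 summit 25 bp from the start. MRPL24, a protein of the mitochondrial ribosome, had 14.1 in HCT116 and 1.81 in SW480, a ratio of 7.79, the highest among the sites. There the HCT116 pileup was 94 over a background of 5.74, against a pileup of 54 over 29.4 in SW480. The MRPL24 start was 1019 bp from a gene end. RPL6 had 14.0 in HCT116 and 2.96 in SW480, with backgrounds of 6.95 in HCT116 and 21.6 in SW480.

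SLC3A2, the heavy chain of amino acid transporters, had 11.6 in HCT116 and 3.61 in SW480. ING5, a reader of methylated histone H3 in other acetyltransferase complexes, had 11.1 in HCT116 and 4.65 in SW480. PFAS, an enzyme of purine synthesis, had 10.5 in HCT116 and 8.01 in SW480. HNRNPUL1 had 9.30 in HCT116 and 4.48 in SW480 with its HCT116 summit 24 bp from the start, and PUM2 had 9.46 in HCT116 and 5.48 in SW480. ASNS had 8.43 in HCT116 (pileup 39, background 3.75) and 6.90 in SW480 (pileup 161, background 22.5). Further heterogeneous ribonucleoproteins among the 60 strongest internal-start sites were HNRNPDL (11.4 in HCT116 and 3.74 in SW480), whose start was 237 bp from a gene end, HNRNPF (9.51 in HCT116 and 3.19 in SW480), HNRNPH1 (8.91 in HCT116 and 3.44 in SW480) and HNRNPL (8.39 in HCT116 and 3.44 in SW480).

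Across all the sites HCT116 had somewhat higher folds. The median was 4.17 in HCT116 (quartiles 3.37 to 5.54) and 3.41 in SW480 (2.82 to 4.13), taking the SW480 region of highest fold under each site, and 88.3% of the sites had a single one. Median widths were 963 bp in HCT116 and 490 bp in SW480, and median −log10 q was 7.95 in HCT116 and 5.75 in SW480. The median ratio of HCT116 over SW480 fold was 1.24. Shared peaks at gene ends had medians of 5.88 in HCT116 and 3.41 in SW480 and a ratio of 1.72, and HCT116-alone regions away from gene ends had a median fold of 3.37 and a width of 431 bp. By place the ratio of the sites was 1.57 at internal starts, 1.16 elsewhere inside genes and 1.20 outside genes.

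The median pileups were nearly equal in the lines, whose read depth is unknown, and the median backgrounds were not. At the sites the HCT116 pileup had a median of 28 fragments over a background of 5.74. In SW480 the medians were 32 and 8.65. Per site, the median ratio of HCT116 over SW480 was 0.917 for pileup (quartiles 0.702 to 1.22) and 0.719 for background (0.491 to 0.960). Background was at the lowest level of its list, to within 1%, at 9.002% of the sites in HCT116 and 11.8% in SW480. The higher median fold in HCT116 thus stood beside a lower median background there, while single sites also differed in pileup. What set the SW480 background was not tested.

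**Figure D3:**
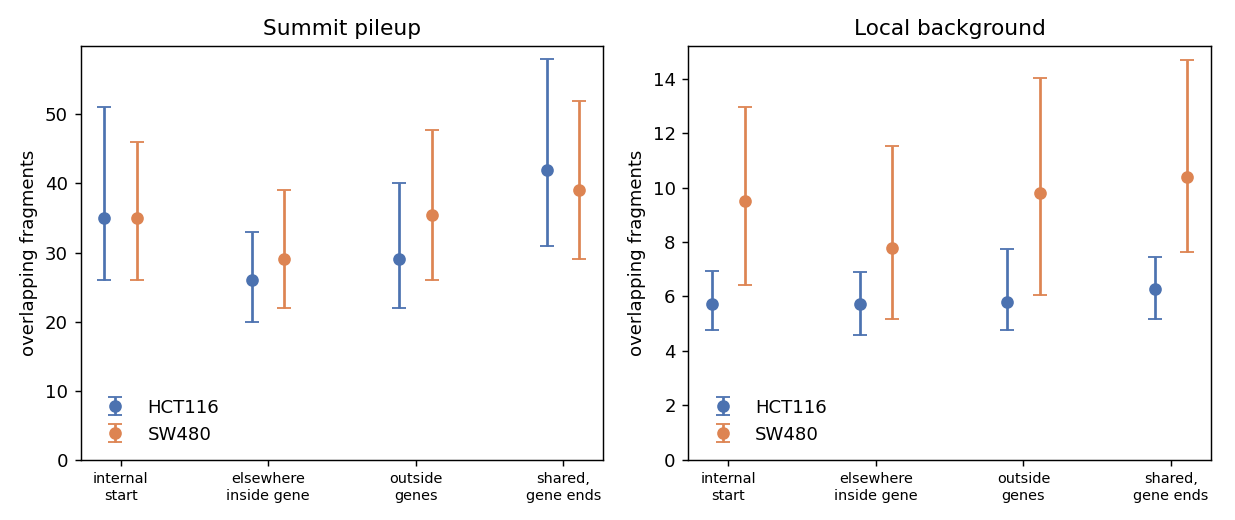
Median summit pileup (left) and local background (right) in overlapping fragments, for HCT116 and SW480, at the sites by place and at shared gene-end peaks; bars run from the first to the third quartile. At internal starts the median pileup is 35 in both lines, while the background is 5.74 in HCT116 and 9.51 in SW480.

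A fold at least 2 times higher in HCT116 was found at 253 sites, 16.5% of them. Over all 5309 shared HCT116 regions this share was 30.4% and at gene ends 36.0%, so the sites were less often in this class than shared peaks as a whole. By place it was 30.3% at internal starts, 11.3% elsewhere inside genes and 14.3% outside genes. A fold in HCT116 of at most 0.5 of that in SW480 was found at 22 sites, 1.44%, against 0.527% of all shared regions.

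**Figure D4:**
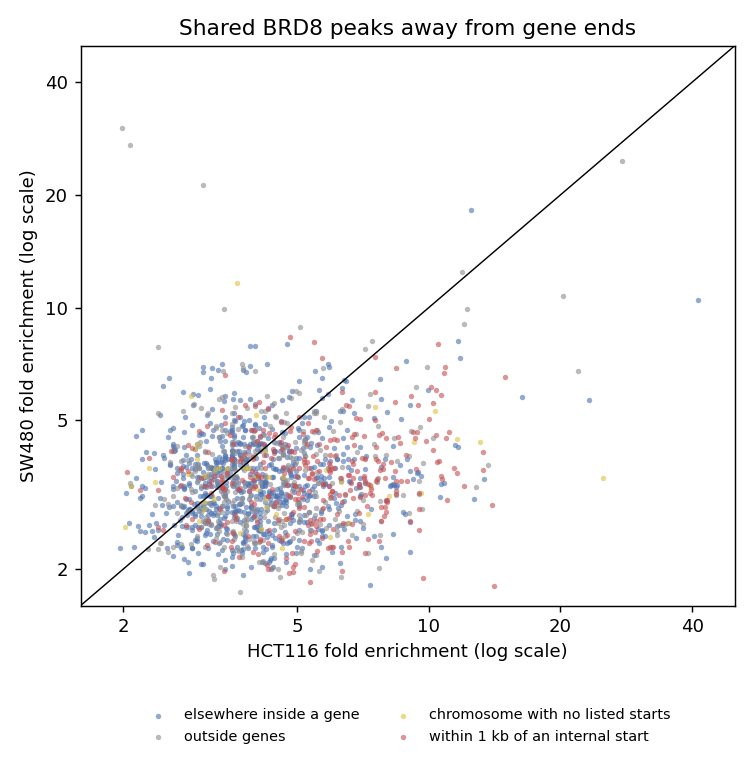
Fold enrichment in HCT116 against SW480 for the 1533 sites, both axes on a log scale, coloured by place; the line marks equal folds. The quartiles of the points are 3.37 to 5.54 in HCT116 and 2.82 to 4.13 in SW480, internal-start sites spread to higher HCT116 folds, and 3 sites on chromosome 16 lie far above the line.

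Several of the sites of highest HCT116 fold had their HCT116 summit 1 to 2 kb from the end of a gene. A site within TFAP4, a transcription factor that is a MYC target (chr16:4270169-4274454), had folds of 23.3 in HCT116 and 5.65 in SW480, with its summit 1519 bp from a gene end. Upstream of RRM2, a subunit of ribonucleotide reductase (chr2:10119401-10125064), the folds were 21.9 in HCT116 and 6.78 in SW480, with the summit 1946 bp from the gene. A site within BRD2, a BET bromodomain protein (chr6:32967253-32973823), had 16.3 in HCT116 and 5.77 in SW480, with the HCT116 summit 1206 bp from a gene end. The SW480 region of that fold had its summit 1075 bp from the HCT116 summit and itself reached that gene end. A site beside PTMA, prothymosin alpha, had 12.8 in HCT116 and 3.31 in SW480 at 1258 bp. Each of these HCT116 regions, 2675 to 6571 bp wide, reached that gene end although its summit did not.

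Others lay outside genes or within noncoding ones. A narrow site on the X chromosome (chrX:134885453-134885757), 2023 bp from MOSPD1, had folds of 27.6 in HCT116 and 24.6 in SW480, with pileups of 130 in HCT116 and 124 in SW480. A site 40225 bp from FOXK1, a forkhead factor (chr7:4641177-4643566), had 20.3 in HCT116 and 10.7 in SW480. Near CAV2, a caveolin, the folds were 11.9 in HCT116 and 12.4 in SW480, and near NRSN2 12.3 in HCT116 and 9.92 in SW480. Within LOC105376208, a long noncoding RNA gene on chromosome 9, they were 12.5 in HCT116 and 18.3 in SW480. The ratio of HCT116 over SW480 was 1.12 at the MOSPD1 site and 0.956 at the CAV2 site. Of the other sites of highest HCT116 fold, LNCOC1 on chromosome 8 had 24.99 in HCT116 and 3.50 in SW480, a site on chromosome 1 (chr1:26619337-26622135) had 13.7 in HCT116 and 3.79 in SW480, and LINC02985 had 13.4 in HCT116 and 3.48 in SW480. High ratios of HCT116 over SW480 were also found within VAC14 (12.7 in HCT116 and 3.08 in SW480) and at an internal start of DMKN (9.72 in HCT116 and 1.89 in SW480). The widest region, of 7968 bp within HDGF, a growth factor gene, had 8.46 in HCT116 and 3.36 in SW480. A site deep within ARID1B, a subunit of the SWI/SNF remodelling complex, lay 188926 bp from a gene end with folds of 8.30 in HCT116 and 3.53 in SW480.

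Of the 22 sites with an HCT116 fold of at most 0.5 of that in SW480, the 3 with the lowest ratios had high backgrounds in HCT116. On chromosome 16, 2 sites nearest to the pseudogene ANKRD26P1 had folds of 1.99 and 2.07 in HCT116 against 30.1 and 27.1 in SW480. Their HCT116 backgrounds were 335 and 45.3 and their SW480 backgrounds 24.2 and 4.09. Another site on the same chromosome (chr16:34593263-34593561) had 3.05 in HCT116 over a background of 25.2 and 21.2 in SW480 over 4.32. The site farthest from any gene (chr3:93470370-93470805), 373162 bp away, had a fold of 5.60 in HCT116 (pileup 5254, background 938) and 3.39 in SW480 (pileup 3072, background 905). These 4 were the sites with an HCT116 background over 5 times the lowest, and SW480 passed that limit at 60 sites. Repeats and read mapping at these sites were not analysed here.

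Some sites came in runs within a gene. Of 1008 genes around a site, 849 held 1, 111 held 2 and 48 held 3 or more. The 48 held 182 of the 1533 sites together. Runs were not counted over all HCT116 regions away from gene ends, of which PHLDB2, with 5 sites, held 44. LINC-PINT, a p53-induced long noncoding RNA (chr7:130877562-131109925, minus strand, 232 kb), held 15 sites, of 36 HCT116 and 21 SW480 regions away from gene ends within it. Their folds were 2.81 to 5.69 in HCT116 (median 4.13) and 2.25 to 8.01 in SW480 (median 3.33). The HCT116 region with its summit 82.8 kb from the lower-coordinate end had a fold of 4.75, against 8.01 in SW480, the highest there, with the summit 83.1 kb from that end. The 7.10-fold HCT116 region at 135 kb overlapped no SW480 region.

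**Figure D5:**
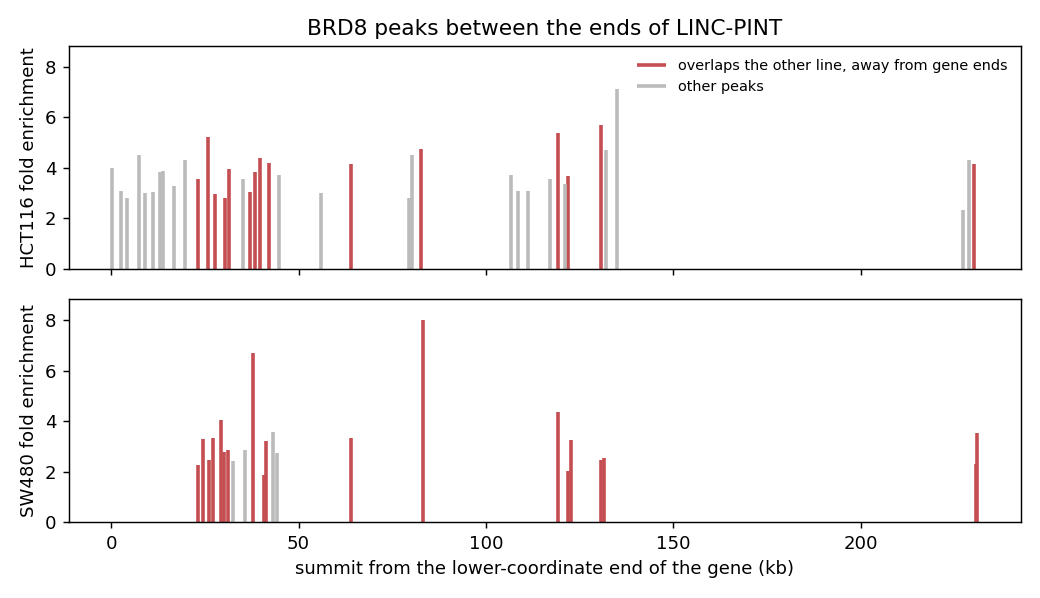
Fold enrichment of BRD8 peaks between the ends of LINC-PINT in HCT116 (top) and SW480 (bottom), against the distance of the summit from the lower-coordinate end of the gene in kb. Red lines are peaks of the 15 shared sites away from gene ends and grey lines the other peaks. Many of the shared sites lie between 23.3 and 42.2 kb, and no peak was called in either line between 135 and 227 kb.

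CUEDC1 and DLGAP1 held 7 sites each, VMP1, the host of MIR21, 6, and PHLDB2, SPRY4-AS1, RAD51B, ACTN4, B4GALT5 and LOC124905135 held 5 each. YBX3, a cold-shock protein gene of 24.2 kb, held 4, or 16.5 per 100 kb, and HOXA3, a homeobox gene of 45.6 kb, held 4, or 8.78 per 100 kb, beside 6.46 per 100 kb in LINC-PINT. ETV5, an ETS factor induced by growth factor signalling, held 3 sites with folds of 2.74 to 4.003 in HCT116 and 3.91 to 7.92 in SW480. RTN4, a reticulon, held 3 sites, all of them at internal starts, with folds of 3.56 to 7.42 in HCT116 and 3.15 to 4.32 in SW480. LINC00513 lies within LINC-PINT, so its 4 sites count for both, and sites of a run that overlap the same SW480 region share its value.

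Outside genes there were 18 stretches with at least 3 sites no more than 50 kb apart. A stretch on chromosome 2 (219688072 to 219700461) held 6 sites with folds of 2.995 to 5.78 in HCT116 and 2.37 to 4.36 in SW480. The stretch beside PTMA held 5, with 4.45 to 12.8 in HCT116 and 2.65 to 3.50 in SW480. Stretches of 3 lay beside BHLHE40, a circadian and hypoxia-induced repressor, IRF1, an interferon-induced factor, CYP24A1, the vitamin D hydroxylase, and WEE1, a kinase of the cell cycle. On chromosome 8 a stretch beside MIR378D2HG held 7 sites, with folds of 2.30 to 4.23 in HCT116 and 2.69 to 4.199 in SW480.

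The genes around the sites were long, and 970 of 19974 protein-coding genes, 4.86%, held a site or were the nearest gene to one outside genes. Their median length was 56626 bp, against 24171 bp for all protein-coding genes. The rule itself favours long genes, because a summit inside a gene had to be over 1 kb from both of its ends. Lengths of genes around HCT116-alone regions were not set beside these. The 10 gene lists, which differ in gene length, are described by counts, from 2 of 25 to 5 of 20 genes with a site, and nothing particular to a list is read from them. For a gene with several sites the values given are those of its site of highest HCT116 fold, unless another is named, and other sites of a gene can go the other way, as at MXI1, RNF43 and TGIF1. Of 18 TIP60/NuA4 subunit genes 3 had a site, RUVBL1, an ATPase of the complex, at an internal start with folds of 8.62 in HCT116 and 3.44 in SW480, ING3, a histone reader, with 3.19 in HCT116 and 3.73 in SW480, and MORF4L2, a chromodomain-related subunit, with 2.95 in HCT116 and 3.54 in SW480.

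Among cell-cycle and MYC-network genes 6 of 29 had a site. The site nearest CCND1, which encodes cyclin D1, lay 4415 bp away with folds of 9.02 in HCT116 and 4.004 in SW480. MXI1, a MYC antagonist, had 7.04 in HCT116 and 3.97 in SW480 at an internal start, and MNT, another antagonist, 5.05 in HCT116 and 3.01 in SW480. The remaining 3 were CCND3, CCNE1 and CDKN1B, with HCT116 folds of 3.07 to 4.87, and the CCNE1 site lay outside genes 21155 bp away. Of 30 Wnt genes 3 had a site: BCL9L, a coactivator of β-catenin, with 5.34 in HCT116 and 2.84 in SW480 at the strongest of its sites, RNF43, a ligase that removes Wnt receptors, with 5.33 in HCT116 and 3.15 in SW480, and its relative ZNRF3, with 4.12 in HCT116 and 2.84 in SW480. At another of its 4 sites ZNRF3 had 3.35 in HCT116 and 4.86 in SW480. Colorectal cancer drivers with a site included BCL9L and RNF43, and also PIK3CA, the catalytic subunit of a lipid kinase, with 2.52 in HCT116 and 2.28 in SW480.

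Junction and adhesion genes with a site included CTNND1 and CLDN3. CTNND1, or p120 catenin, had 5.58 in HCT116 and 4.66 in SW480. The site nearest CLDN3, a claudin, lay outside genes 29341 bp away, with 5.19 in HCT116 and 4.42 in SW480. TJP1, PKP3 and ITGA6 had HCT116 folds up to 4.22. Of 27 receptor kinase genes and regulators 4 had a site. EGFR had 6.39 in HCT116 and 6.43 in SW480 at a site 55283 bp from a gene end, AXL 5.13 in HCT116 and 3.12 in SW480 at an internal start, INSR 4.45 in HCT116 and 3.705 in SW480, and SPRED2, an inhibitor of RAS signalling, 4.14 in HCT116 and 4.19 in SW480. That SPRED2 site lay outside genes 3070 bp away. A second EGFR site had 3.61 in HCT116 and 4.98 in SW480, and a second SPRED2 site, inside a gene, 4.07 in HCT116 and 3.51 in SW480.

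Of 23 AP-1 and immediate early genes 4 had a site. IER2 had 8.91 in HCT116 and 3.94 in SW480, and BACH2 3.79 in HCT116 and 4.33 in SW480. The FOSL1 site lay outside genes 2945 bp away, with 4.202 in HCT116 and 2.76 in SW480. The FOS site lay outside genes 1327 bp away, with 2.71 in HCT116 and 2.33 in SW480. Of 22 TGF-β genes 3 had one, TGIF1, a SMAD corepressor, with 5.82 in HCT116 and 4.25 in SW480, ID2 with 4.05 in HCT116 and 2.90 in SW480, and TGFBR2 with 3.40 in HCT116 and 4.13 in SW480. The 25 intestinal transcription factors gave 2, EHF, an epithelial ETS factor, with 4.59 in HCT116 and 4.96 in SW480, and KLF5 with 2.88 in HCT116 and 4.21 in SW480. Of 12 microRNA host genes MIR17HG, described above, and MIR100HG, with 7.39 in HCT116 and 2.90 in SW480, had a site.

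The nearest annotated gene was protein-coding for 58.3% of the sites and a long noncoding RNA for 28.1%. By chromosome the sites were between 3.697% of HCT116 regions, on chromosome 4, and 11.9%, on chromosome 21; copy number was not analysed here. The nearest gene end was more often a 5′ than a 3′ end, for the sites and for HCT116-alone regions alike. For the 1030 sites whose nearest gene has a listed strand, the nearest end was a 5′ end with the summit inside that gene for 46.5% (43.5 to 49.6) and a 5′ end with the summit upstream for 24.1%. It was a 3′ end for 13.8% inside and 15.6% downstream. The HCT116-alone regions away from gene ends had 40.3%, 26.7%, 15.8% and 17.3%. Genes around a site often had a gene-end peak too. Of the 852 protein-coding ones, 59.4% had one in HCT116 and 43.4% in SW480. For genes around an HCT116-alone region and no site these shares were 67.3% and 33.4%, and for all protein-coding genes 43.8% and 21.9%.

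Summits in the 2 lines were close at many sites but less so than at gene ends. The median distance between them was 157 bp at the sites and 82 bp at shared gene-end peaks. They were within 100 bp at 40.7% of the sites (38.3 to 43.2), against 53.5% of shared gene-end peaks (51.9 to 55.1). By place the share was 44.5% at internal starts, 37.8% elsewhere inside genes and 43.7% outside genes.

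The limits that define the sites passed through a continuous range of distances. The median distance to a gene end was 4569 bp, 30.3% of the sites were within 2 kb of one and 3.13% beyond 50 kb. At 74 sites, 4.83% (3.86 to 6.02), the region reached a gene end although the summit did not, against 0.508% of HCT116-alone regions. The 5 sites just over 1 kb, at 1001 to 1007 bp, had HCT116 folds of 2.21 to 4.29, and the 5 shared peaks just under it, at 999 to 1000 bp, had 2.62 to 10.4. The overlap between the lines was 2 to 4663 bp, with a median of 385 bp, and under 100 bp at 69 sites. The −log10 q was under 2 at 52 sites in HCT116 and at 100 in SW480.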

How the data were processed

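Per the submitters' processing notes, the authors used Trimmomatic 0.33, Bowtie2 2.4.1, MACS2 and deepTools with GRCh38. No read filter is described in the sources used here. Deposited peak lists, 1 per ChIP library, hold a score, a fold enrichment (a ratio of ChIP to local background, 1 added to each), −log10 p and q values with a q threshold of 0.05, and a summit offset. The deposited score was not used. Pileup and background were solved from fold and p (tolerance 0.0001, all regions solved) after a check on simulated peaks, with Python 3.11.15, SciPy 1.17.1 and pandas 2.3.3. Shares have 95% Wilson intervals and no p was computed, since each line has 1 ChIP library.

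The sites and the 10 gene lists were chosen with earlier results of these data known. Named are the 12 sites of highest HCT116 and 8 more of highest SW480 fold, the 5 at each extreme of ratio, width, distance to genes and the 1 kb limit, runs of at least 3, and up to 3 genes per list; of each set the text gives the leading ones. Internal-start sites, and the motif windows at starts in place of a planned search at summits, were chosen after the data were seen. Symbols come from RefSeq on GRCh38.p14, with 59098 genes. Some genes of these lists are not reported here.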

Additional observations from a re-analysis of the deposited data

How the results depend on the processing

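The 1533 sites, the 75.9% of them inside a gene, their median folds of 4.17 in HCT116 and 3.41 in SW480 and their median ratio of 1.24 were recomputed under 11 alternatives, 55 values in all, of which 32 stayed within the error or, for counts, within 1.5 times and 23 moved. The number fell to 739 with a gene-end distance of 5 kb, 879 with summits within 200 bp and 672 with −log10 q of at least 5 in both lists. The share inside a gene was 71.4% at 2 kb, 72.1% at 5 kb, 72.6% with −log10 q of at least 5 and 63.4% with ends of protein-coding genes alone. For comparison with the 75.9%, 71.9% of HCT116-alone and 69.2% of SW480-alone regions away from gene ends lay inside a gene. The HCT116 fold was 4.42 at 500 bp, 4.33 with overlap of 0.5 of the narrower region, 4.43 with summits within 200 bp, 5.10 with −log10 q of at least 5 and 4.29 with protein-coding ends. The SW480 fold was 3.50 and 3.94 with −log10 q of at least 2 and 5. The ratio was 1.34 at 500 bp, 1.20 at 5 kb, 1.29 with the overlap of 0.5, 1.32 with summits within 200 bp, 1.298 with −log10 q of at least 5 and 1.28 with protein-coding ends. Leaving out the internal-start sites, an alternative chosen after seeing the data like that without high HCT116 backgrounds, gave 69.1% inside a gene, an HCT116 fold of 3.97 and a ratio of 1.18. The alternatives differ in which regions the set holds, and the cause of the moves was not tested beyond that. No paired analysis was possible because each line has 1 ChIP library. Read depth is unknown, so sites called in 1 line alone may lie below the threshold of the other.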
